A study of Mus musculus with 6 samples.

Results

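The genes described here are 10 chaperone genes of the mouse, selected by symbol out of 23951 genes in 1 table of expression values. They are Clu, the small heat shock protein genes Cryab, Hspb1, Hspb7 and Hspb8, the HSP70 genes Hspa8, Hspa1a and Hspa1b, the HSP110 gene Hsph1 and the J-domain gene Dnajb1. The group was chosen on the values of Clu, which rise from B16-F1 to the other lines, and of Hspb7, which fall in B16-F1R2L. Levels of these 2 genes are therefore a description and carry no test.

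RNA was measured in 6 libraries of 3 untreated mouse melanoma lines, 2 libraries per line. B16-F1, bought from a cell repository (ATCC), is labelled as having low metastatic potential. B16-F1R2 is labelled as coming from a lymph node metastasis, and B16-F1R2L as coming from a lung metastasis that arose from a lymph node metastasis. The labels credit both to another laboratory, so that in a comparison with B16-F1 the line and its source cannot be told apart. They are also called here the lymph node line (B16-F1R2) and the lung line (B16-F1R2L). All 3 were grown in high glucose DMEM with fetal bovine serum, glutamine and gentamicin. Each is 1 line, and nothing states whether its 2 libraries came from separate cultures, so that p-values measure only the spread between these libraries, which may be technical. Values are FPKM, which scale fragments by transcript length and by 1000000 mapped reads. Depth is not given with the table and was estimated at between 11800000 and 14100000 reads per library. Differences were tested with limma on log2(FPKM + 0.1), a scale that understates the change of low genes, over the 11379 genes at or above 1 FPKM in 2 or more libraries, and a gene is called higher or lower at a Benjamini-Hochberg adjusted p under 0.05. With 2 libraries against 2, the smallest two-sided p of an exact permutation test is 0.333 for a gene.

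Small heat shock proteins are holdases. They share the alpha-crystallin domain, bind unfolding proteins without using ATP and hand them to the HSP70 system, in which J-domain proteins deliver clients and HSP110 proteins exchange the nucleotide. Clusterin, the product of Clu, is a secreted glycoprotein that does much the same outside the cell. Heat shock factor 1 (HSF1) induces many of these genes through heat shock elements, inverted repeats of a short unit in their promoters, while Hspa8 and Cryab can be abundant without stress.

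The 10 melanocyte markers, Mitf, Tyr, Dct, Pmel and Mlana among them, reached 1 FPKM throughout the list, and their summed level was 15410 to 15470 FPKM in B16-F1, 8099 to 8322 in the lymph node line and 9128 to 9141 in the lung line. Of the 10 markers of striated muscle and heart, 2 reached 1 FPKM. Their sum was 1.65 to 1.80 FPKM in B16-F1, 23.9 to 27.99 in the lymph node line and 24.1 to 26.6 in the lung line, nearly all of it Des and Ckm, while Myod1 was listed at 0 in every library. The 5 lymphocyte markers summed to 0.0593 to 0.0693 FPKM in B16-F1, 12.5 to 12.8 in the lymph node line and 15.9 to 17.1 in the lung line, which was Cd79a almost alone. The lists for fibroblasts, macrophages, endothelium and epithelium summed to at most 3.19 FPKM in any library, with Ptprc, Cdh5 and Tek at 0. Pecam1, an endothelial and leukocyte marker, was listed at 0 in B16-F1 and was at 0.758 and 0.751 FPKM in the lymph node line and 1.09 and 1.26 in the lung line. Postn, a fibroblast marker, was at 0.706 and 0.625, 1.14 and 0.964, and 1.09 and 0.975 FPKM. The part of other cell types in the results was not tested. In libraries of a culture, fewer cells of a type and less RNA per cell cannot be told apart.

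The promoters of Hspb1, of the near-identical pair Hspa1a and Hspa1b and of Hspb7 are shown first, to set heat-inducible genes beside a member whose promoter has no matching pair. RefSeq promoter entries were at hand for 7 of the 10 members and not for Clu, Cryab and Hspa8. The 250 bases before the start were matched to NCBIM37 (mm9), where each occurs once. Capitals mark a pair of adjacent heat shock units, GAANNTTC or TTCNNGAA, searched on both strands, which 12.8% of 32851 RefSeq mouse promoters of this length hold.
Hspb1: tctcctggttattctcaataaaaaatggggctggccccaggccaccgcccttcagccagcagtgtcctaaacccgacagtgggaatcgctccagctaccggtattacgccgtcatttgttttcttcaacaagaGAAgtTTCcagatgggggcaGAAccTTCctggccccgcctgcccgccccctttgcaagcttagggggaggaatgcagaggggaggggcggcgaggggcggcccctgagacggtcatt
Hspa1a: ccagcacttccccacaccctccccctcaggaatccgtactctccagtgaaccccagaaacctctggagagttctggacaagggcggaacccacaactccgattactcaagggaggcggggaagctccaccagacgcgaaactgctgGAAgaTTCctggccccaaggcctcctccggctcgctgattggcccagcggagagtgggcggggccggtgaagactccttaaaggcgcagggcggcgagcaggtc
Hspa1b: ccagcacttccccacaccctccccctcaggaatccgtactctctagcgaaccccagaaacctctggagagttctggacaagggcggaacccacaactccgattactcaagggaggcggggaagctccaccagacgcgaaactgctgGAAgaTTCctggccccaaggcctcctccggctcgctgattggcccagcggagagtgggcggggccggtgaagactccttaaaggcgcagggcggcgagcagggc
Hspb7: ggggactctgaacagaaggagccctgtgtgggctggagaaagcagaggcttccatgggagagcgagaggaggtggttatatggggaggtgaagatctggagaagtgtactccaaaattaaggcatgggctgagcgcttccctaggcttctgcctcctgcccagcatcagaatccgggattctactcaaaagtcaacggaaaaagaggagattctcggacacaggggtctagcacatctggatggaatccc
The Hspb1 sequence (chr5:136363539-136363788, plus strand) holds 2 such pairs, beginning at -117 and -97. The Hspa1a sequence (chr17:35109102-35109351, minus strand) and the Hspa1b sequence (chr17:35096184-35096433, minus strand) hold 1 each at -104, and the 2 sequences are identical at 247 of 250 positions. The Hspb7 sequence (chr4:140976444-140976693, plus strand) holds none, and neither do those of Hspb8 and Dnajb1. Hsph1 has 1 pair, at -33 or -54 depending on which of its 2 starts is counted. None of the 7 promoters holds a run of 3 units, which 0.466% of all promoters do. A match is a description of the letters and not evidence of binding.

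Clu was at 0.137 and 0.143 FPKM in B16-F1, 69.9 and 75.4 in the lymph node line and 89.9 and 86.4 in the lung line. The lines did not overlap, and the B16-F1 values were those of a few reads, since 1 read is worth 0.0392 to 0.0468 FPKM at this transcript length. By rank among all 23951 genes, Clu moved from 12347 to 12377 in B16-F1 to 1061 to 1439 in the other 2 lines. On the log2 scale the difference was 8.24 (SE 0.06) for B16-F1R2 and 8.52 (SE 0.06) for B16-F1R2L against B16-F1. These sizes rest on the pseudocount. The first ran from 6.01 with a pseudocount of 1 to 8.92 with one of 0.01. Between the metastatic lines the difference was 0.28 (SE 0.06), higher in B16-F1R2L. Clu spans chr14:66587320-66600385 on the plus strand, with 9 exons in its longest transcript, and no stretch of 50 bases of its transcripts occurs elsewhere in the genome. Its neighbours Scara3 and Gulo were at or under 0.0418 FPKM in all 6 libraries.

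Hspb7, a small heat shock protein known from heart and skeletal muscle, was at 0.0777 and 0.0818 FPKM in B16-F1, 3.13 and 3.04 in the lymph node line and 0.524 and 0.492 in the lung line. The level was thus highest in the lymph node line and intermediate in the lung line, without overlap. The log2 differences were 4.15 for B16-F1R2 and 1.76 for B16-F1R2L against B16-F1, and -2.39 for B16-F1R2L against B16-F1R2, each with an SE of 0.21. The second turned negative, to -0.78, after quantile normalization. Over the alternative settings with all libraries, the first ran from 1.92 to 5.11 and the third from -3.28 to -1.44. With 1 read worth 0.0256 to 0.0306 FPKM, the B16-F1 values are again a few reads, and the gene passed the filter on low values through B16-F1R2 alone. Between the metastatic lines, the 2 most abundant muscle markers overlapped. Des was at 10.1 and 9.38 FPKM in B16-F1R2 and 10.3 and 9.75 in the lung line, and Ckm at 15.8 and 13.1 and at 15.2 and 12.7. Tnnt2, a cardiac troponin gene under the filter, had the order of Hspb7, at 0.298 and 0.0773 FPKM in B16-F1, 0.994 and 0.977 in the lymph node line and 0.422 and 0.665 in the lung line, without overlap. Ttn, the titin gene, was higher in the lung line, at 0.135 and 0.16 FPKM against 0.102 and 0.106 in the lymph node line. The part of muscle genes in the Hspb7 values was not tested. Hspb7 lies at chr4:140976694-140981226 on the plus strand in 3 exons.

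The genes with the pattern nearest to these 2 were found by the distance of log2(FPKM + 0.1), centred on each gene's mean over the 6 libraries. For Clu they were Fxyd1 (distance 0.473), Mrap (0.614), Lrmp (0.705), As3mt (0.954) and Snora44 (1.18). All 5 had listed values of 0 in B16-F1 and of 17.6 to 37.98 FPKM in the other 4. Their distances to Clu therefore rest on the pseudocount of 0.1, and they passed the filter only through the lines where they are high. For Hspb7 they were Cyp1a1 (distance 0.992), Col8a1 (1.11), Atoh8 (1.28), Cxcl10 (1.33) and Col1a1 (1.48). Cxcl10, a chemokine gene, was at 8.02 and 8.37 FPKM in B16-F1, 107 and 113 in the lymph node line and 55.9 and 47.1 in the lung line. Col1a1, a collagen gene of fibrillar matrix, was at 0.226 and 0.311, then 16.8 and 17.1, then 2.81 and 2.19. The other 3 were nearer to Hspb7 in level, at 1.65 to 2.79 FPKM in the lymph node line and 0.535 to 0.677 in the lung line. These 3 passed the filter through B16-F1R2 alone, and Col1a1 through both lines where it is higher.

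**Figure D1:**
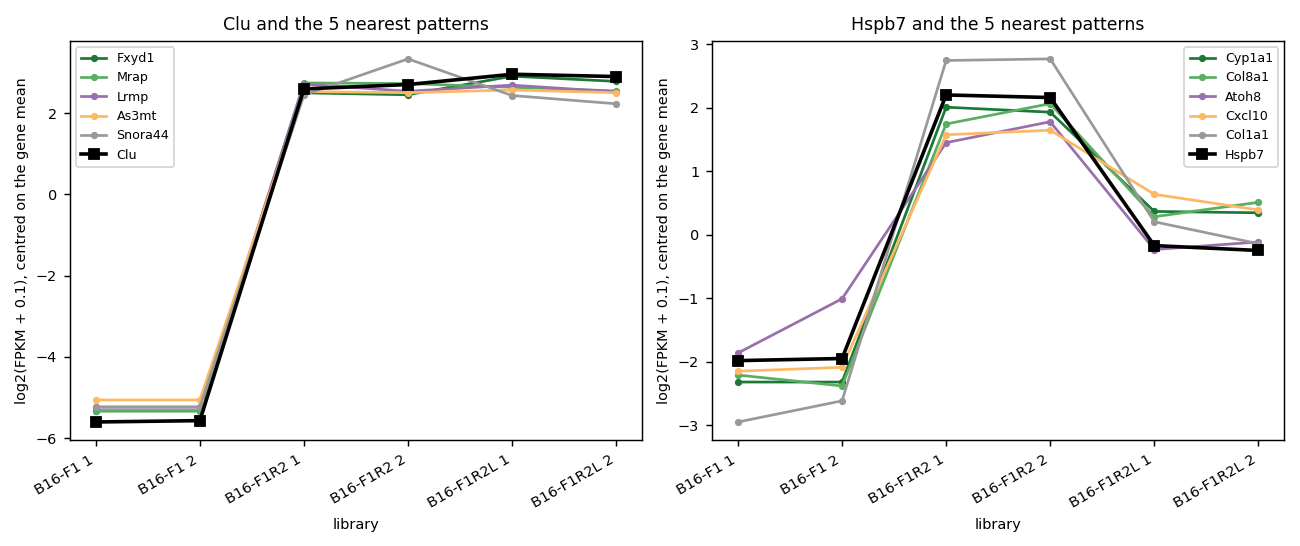
Centred log2(FPKM + 0.1) in each of the 6 libraries (x axis) for Clu and Hspb7 (black squares) and the 5 tested genes nearest to each (coloured circles). The lines join libraries for reading only. Clu and its neighbours step up between B16-F1 and both other lines, and the Hspb7 group is highest in B16-F1R2 with B16-F1R2L in between.

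Among the small heat shock proteins not chosen on their values, Hspb1 and Cryab differed in direction. Hspb1, the gene of HSP25, was at 14.1 and 17.6 FPKM in B16-F1, 67.8 and 67.5 in the lymph node line and 77.1 and 63.2 in the lung line. Both metastatic lines lay above B16-F1 and overlapped each other. The log2 fold change was 2.10 for B16-F1R2 (SE 0.13, adjusted p = 4.3e-05 from limma) and 2.14 for B16-F1R2L (SE 0.13, adjusted p = 3.7e-05) against B16-F1. Between the metastatic lines it was 0.05 (SE 0.13, adjusted p = 0.82), and it turned to -0.10 without B16-F1R2L replicate 1. Hspb1 (chr5:136363789-136365433, plus strand, 2 exons) shares 57.4% of its 50-base stretches with other places, mostly Hsp25-ps1 and Gm9817, so that its level depends on how shared reads were assigned.

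Cryab, alpha-B-crystallin, was by far the most abundant of the small heat shock proteins, at 426 and 410 FPKM in B16-F1, 397 and 371 in the lymph node line and 335 and 314 in the lung line. It ranked between 230 and 286 among all genes. The lines lay in that order without overlap. Cryab was lower in B16-F1R2L than B16-F1 (log2 fold change -0.37, SE 0.06, adjusted p = 0.002 from limma) and was at -0.12 (SE 0.06, adjusted p = 0.11) for B16-F1R2 against B16-F1, a difference called after rescaling (-0.13, adjusted p = 0.033) and quantile normalization (-0.15, adjusted p = 0.016). The step from B16-F1R2 to B16-F1R2L, -0.24 (SE 0.06, adjusted p = 0.029 from limma), kept its sign in all alternatives and missed the threshold in 9 of them. It was -0.19 without B16-F1R2 replicate 1 and -0.20 without B16-F1R2L replicate 2, and the call was lost in both. Leaving out a B16-F1 library cannot change its size, and the call was lost there too. The ratio of Cryab to Hspb1, both per length, went from between 23.3 and 30.3 in B16-F1 to 5.50 to 5.86 in the lymph node line and 4.35 to 4.97 in the lung line. Cryab (chr9:50560863-50564738, plus strand, 3 exons) lies 403 bases from Hspb2, which is read from the other strand. Hspb2 was at 48.1 and 52.4, 42.2 and 46.6, and 52.7 and 42.5 FPKM in the 3 lines. B16-F1R2 lay below B16-F1, and B16-F1R2L overlapped both. It was called in no comparison (adjusted p = 0.21, 0.54 and 0.56 from limma).

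Hspb8, which works with BAG3 in selective autophagy, was under the filter, at 0.645 and 0.583 FPKM in B16-F1, 0.313 and 0.427 in the lymph node line and 0.321 and 0.202 in the lung line. A read is worth 0.0391 to 0.0467 FPKM here. B16-F1 was above both other lines without overlap. With no filter on low values the log2 difference was -1.0 for B16-F1R2L (SE 0.24, adjusted p = 0.027 from limma) and -0.61 for B16-F1R2 (SE 0.24, adjusted p = 0.11) against B16-F1. Of the 6 other genes of the family, Hspb6 and Hspb2 were tested. Hspb6, HSP20, was at 6.42 and 6.56 FPKM in B16-F1, 13.2 and 11.6 in the lymph node line and 9.89 and 9.78 in the lung line, called higher in both metastatic lines (log2 fold changes 0.92 and 0.59, adjusted p = 0.00018 and 0.0011). Its step from B16-F1R2 to B16-F1R2L was -0.32 (adjusted p = 0.034) and missed the threshold without any 1 library except B16-F1R2 replicate 2, with adjusted p up to 0.14 without B16-F1R2 replicate 1. Hspb9 stayed at or under 0.643 FPKM, Odf1 was at 0.0946 FPKM in 1 library, and Cryaa and Hspb3 were listed at 0.

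**Figure D2:**
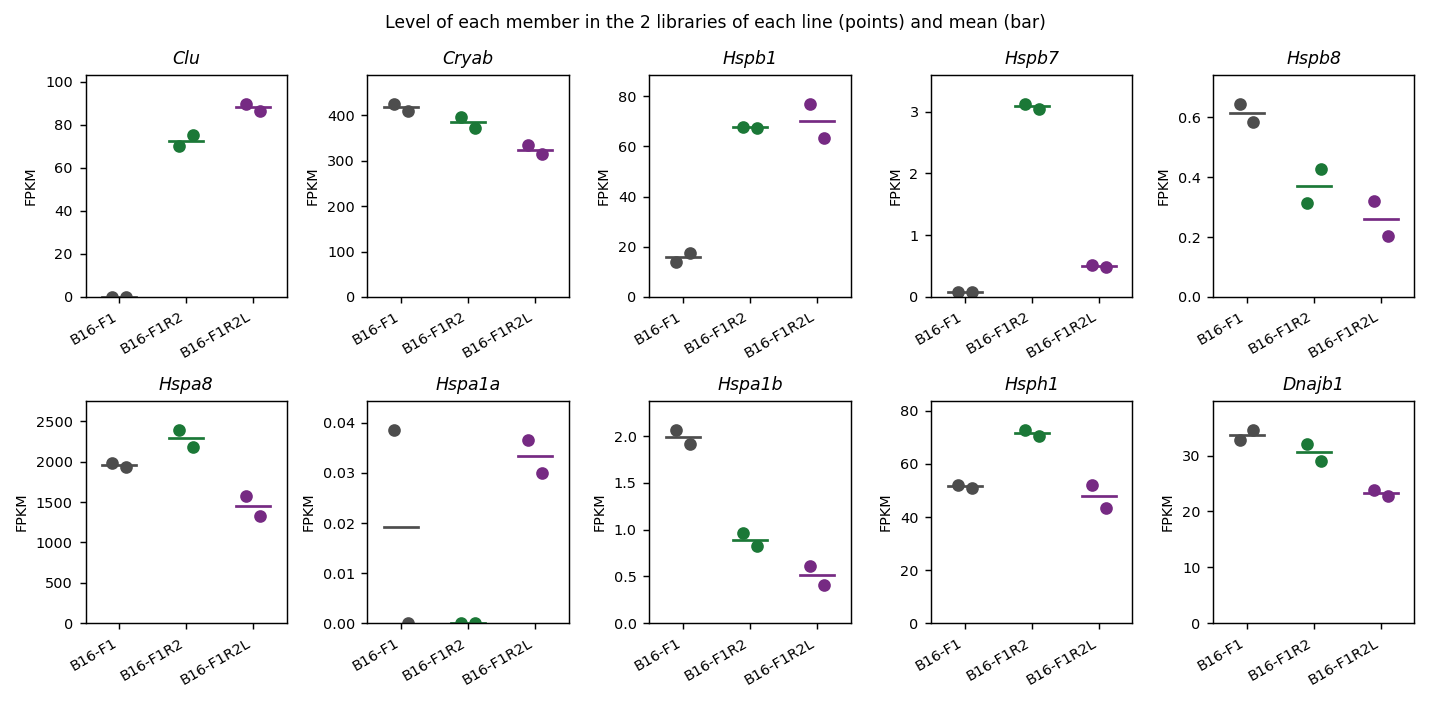
FPKM (y axis, from 0, a separate scale for each gene) of the 10 members in the 2 libraries of each line, with the mean as a bar. Clu and Hspb1 are high in both metastatic lines, Hspb7 is highest in B16-F1R2, and Hspa1b, Cryab, Dnajb1 and Hspa8 are lowest in B16-F1R2L.

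Hspa8, the constitutive HSC70, was the most abundant member at 1988 and 1935 FPKM in B16-F1, 2394 and 2181 in the lymph node line and 1571 and 1327 in the lung line, and it ranked between 32 and 74 among all genes. It made up 0.222% to 0.356% of a library's summed FPKM. The libraries of B16-F1R2L lay below all others. Hspa8 was lower in B16-F1R2L than B16-F1R2 (log2 fold change -0.66, SE 0.09, adjusted p = 0.0087 from limma) and than B16-F1 (-0.44, SE 0.09, adjusted p = 0.0077). B16-F1R2 was at 0.22 (SE 0.09, adjusted p = 0.089) against B16-F1. The first call was lost without B16-F1R2 replicate 1 (adjusted p = 0.054), the second without B16-F1 replicate 1 (adjusted p = 0.06), and the third was gained after rescaling the libraries to equal sums (adjusted p = 0.027), with a replicate block (adjusted p = 0.034) and without B16-F1R2L replicate 1 (adjusted p = 0.049). Of the 50-base stretches of Hspa8 (chr9:40609067-40613283, plus strand), 38.6% occur elsewhere, and the small nucleolar RNA genes Snord14c, Snord14d and Snord14e lie inside it.

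The heat-inducible HSP70 genes were near absent beside it. Hspa1b was at 2.07 and 1.92 FPKM in B16-F1, 0.962 and 0.826 in the lymph node line and 0.612 and 0.409 in the lung line, in that order without overlap. It passed the filter through B16-F1 alone, the line where it is highest, so that its call there is not counted. With no filter on low values the log2 fold changes against B16-F1 were -1.08 for B16-F1R2 (SE 0.22, adjusted p = 0.015 from limma) and -1.80 for B16-F1R2L (SE 0.22, adjusted p = 0.0029). Between the metastatic lines the value was -0.72 (SE 0.22, adjusted p = 0.1 from limma). Among the filtered genes it was -1.08 after quantile normalization (adjusted p = 0.036 from limma), and ran from -0.96 to -0.48 with 1 library left out. Hspa1a was at 0.0386 and 0 FPKM in B16-F1, at 0 in both lymph node libraries and at 0.0367 and 0.0300 in the lung line, where 1 read is worth 0.0242 to 0.0290 FPKM. Hspa1a (chr17:35106144-35109069, minus strand) and Hspa1b (chr17:35093381-35096183, minus strand) are single-exon genes 9960 bases apart that share 61% and 61.4% of their stretches, chiefly with each other, and their split is uncertain. Their sum was 2.11 and 1.92 FPKM in B16-F1, 0.962 and 0.826 in the lymph node line and 0.648 and 0.439 in the lung line. An antisense gene, Gm20481, overlaps Hspa1a. The ratio of Hspa8 to Hspa1b ran from 962 to 1008 in B16-F1 and from 2489 to 3245 in the other lines.

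Hsph1, HSP110, was at 52.1 and 51.1 FPKM in B16-F1, 72.9 and 70.6 in the lymph node line and 52.3 and 43.5 in the lung line. It was higher in B16-F1R2 than B16-F1 (log2 fold change 0.47, SE 0.08, adjusted p = 0.0037 from limma) and lower in B16-F1R2L than B16-F1R2 (-0.59, SE 0.08, adjusted p = 0.0088, or 0.064 without B16-F1R2 replicate 1). B16-F1R2L overlapped B16-F1, at -0.11 (SE 0.08, adjusted p = 0.29). That value was -0.25 (adjusted p = 0.011) without B16-F1R2L replicate 1 and 0.02 (adjusted p = 0.76) without B16-F1R2L replicate 2.

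Dnajb1, HSP40, the J-domain partner that presents clients to HSP70, was at 32.9 and 34.6 FPKM in B16-F1, 32.1 and 29.1 in the lymph node line and 23.9 and 22.7 in the lung line. It was lower in B16-F1R2L than B16-F1 (log2 fold change -0.53, SE 0.06, adjusted p = 0.00074 from limma) and than B16-F1R2 (-0.39, SE 0.06, adjusted p = 0.012). The second call was lost without B16-F1R2 replicate 1 (adjusted p = 0.067) and without B16-F1R2L replicate 2 (adjusted p = 0.068). B16-F1R2 was at -0.14 (SE 0.06, adjusted p = 0.11) against B16-F1. Dnajb1 lies at chr8:86132074-86135801 on the plus strand in 3 exons, and Hsph1 at chr5:150416862-150438951 on the minus strand in 12.

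**Figure D3:**
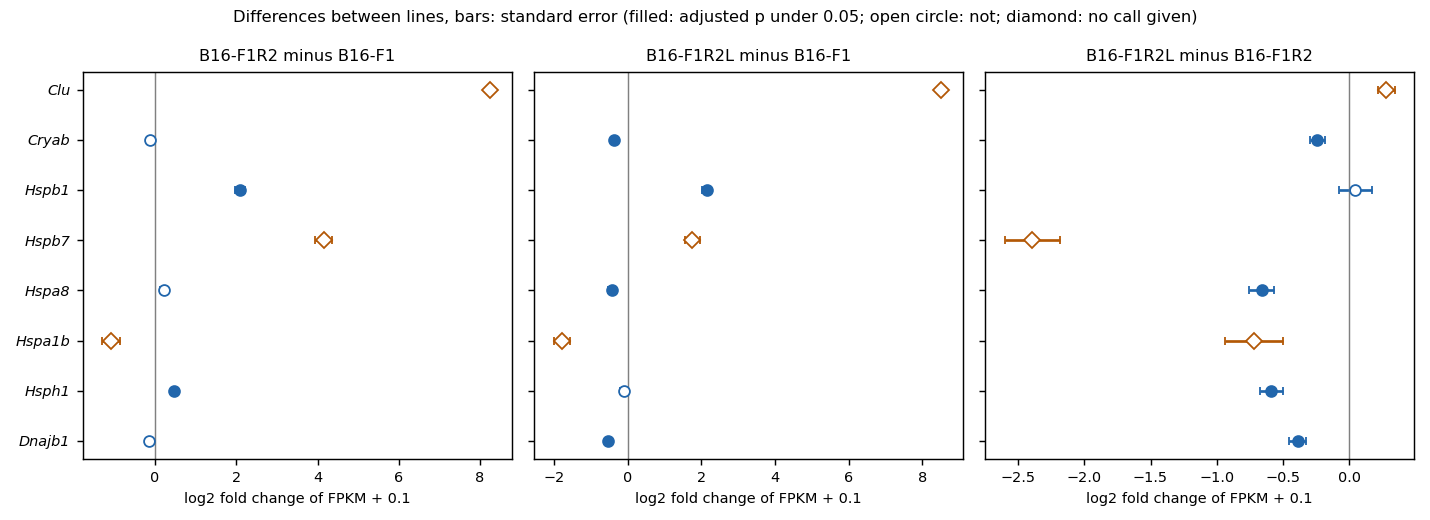
Differences between lines in log2(FPKM + 0.1) with the standard error as a bar, for the 8 members that passed the filter. The x axes differ between panels. Filled circles have an adjusted p under 0.05, open circles do not, and diamonds carry no call (Clu and Hspb7, chosen on their values, and Hspa1b, which passed through B16-F1 alone). Against B16-F1, Hspb1 lies at 2.10 and 2.14, and in the right panel no tested member is called higher.

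Of the 6 tested members that were not chosen on their values, the 5 that reached 1 FPKM in every line were counted together, which leaves out Hspa1b. In B16-F1R2 against B16-F1, 2 were higher (Hspb1 and Hsph1) and none lower (none at an unadjusted limma p under 0.05 either, though Cryab was called lower after rescaling and quantile normalization, and Hspa8 higher after rescaling), where 55.4% of all tested genes were called, 28.2% higher and 27.2% lower. In B16-F1R2L against B16-F1, 1 was higher (Hspb1) and 3 lower (Cryab, Hspa8 and Dnajb1), against 56.7% of all genes called, 29.5% higher and 27.1% lower. In B16-F1R2L against B16-F1R2, none was higher (none at an unadjusted limma p under 0.05 either) and 4 were lower (Cryab, Hspa8, Hsph1 and Dnajb1), against 22.6% called, 12.1% higher and 10.5% lower. With so many genes called, the first 2 counts are not set apart from the background. The third depends on single libraries. Without B16-F1R2 replicate 1 it was 0 (4 at an unadjusted limma p under 0.05), and without B16-F1R2L replicate 2 it was 2. Fewer of all tested genes were called in these fits too, 3.8% and 4.7%. The 2 comparisons with B16-F1 share its libraries, as the others share those of the metastatic lines.

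The other genes of the chaperone network were read from lists of 118 genes, of which 116 were in the table and 94 were tested. These include Dnajb13 and Plxna4, which passed the filter only through lines where they are high. Without them, 45 of 92 rose and 16 fell from B16-F1 to B16-F1R2. From B16-F1 to B16-F1R2L 34 and 22 did, and from B16-F1R2 to B16-F1R2L 7 and 35. These are 66.3%, 60.9% and 45.7% called, against 55.4%, 56.7% and 22.6% of all tested genes. The median log2 fold changes were 0.14, 0.05 and -0.14, and those of all tested genes 0.00462, 0.0166 and 0.022. Counts under other settings include both genes. They are to be read against main-fit counts with both, 47 higher and 16 lower, 36 and 22, and 8 and 35. In B16-F1R2 against B16-F1 the lower count was smaller without B16-F1 replicate 1 or 2 and without B16-F1R2 replicate 2. The share of all tested genes called lower was smaller in these fits too. The same held in B16-F1R2L against B16-F1 without B16-F1 replicate 1, B16-F1 replicate 2 or B16-F1R2L replicate 2. In that comparison, rescaling the libraries to equal sums gave 46 higher and 11 lower (all genes 35.8% and 18%). Quantile normalization gave 46 and 19 (all genes 25.1% and 31.6%). In B16-F1R2L against B16-F1R2, rescaling lifted the median of all genes to 0.13, and 9 list genes were higher and 11 lower (all genes 18.3% and 4.3%). Leaving out any 1 of the 6 libraries gave fewer calls between the metastatic lines, fewest without B16-F1R2 replicate 1 or B16-F1R2L replicate 2. Fewer of all tested genes were called in these fits too, fewest without the same libraries.

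Chaperonins and prefoldin, the ring-shaped folding machines and the complex that feeds them, are the next group. Of 15 tested, 11 rose and none fell from B16-F1 to B16-F1R2 (median 0.34), where 28.2% of all genes rose and 27.2% fell. In B16-F1R2L against B16-F1, 7 were higher and 1 lower (median 0.14, all genes 29.5% higher and 27.1% lower). After rescaling or quantile normalization 11 were higher (all genes 35.8% and 25.1%). Without B16-F1 replicate 1 or 2 the median was 0.13 or 0.14. Fewer were called higher in these 2 fits, in the list and among all tested genes. From B16-F1R2 to B16-F1R2L, 11 were lower and none higher (median -0.20), where 10.5% of all tested genes were lower. At an unadjusted limma p under 0.05, none was lower in the first comparison, and 14 were lower and none higher in the last. Hspe1, the mitochondrial HSP10, was at 388 and 360 FPKM in B16-F1, 774 and 713 in the lymph node line and 602 and 578 in the lung line. The log2 fold changes were 0.99 and 0.66 against B16-F1 and -0.33 between the metastatic lines (adjusted p = 5e-05, 0.00026 and 0.017 from limma). Its partner Hspd1, HSP60, went from 517 and 509 to 819 and 849 and then 698 and 706 FPKM. Pfdn4, a prefoldin subunit, was 0.45 and 0.26 higher in the lines against B16-F1. Cct3 and Cct6a, subunits of the cytosolic ring, were 0.33 and 0.34 higher in B16-F1R2 and fell by 0.32 each in B16-F1R2L, where the call of Cct3 was lost without B16-F1R2L replicate 2 (adjusted p = 0.05 from limma). The count of 11 lower was 4 after rescaling and 5 after quantile normalization, and 3, 1, 4, 4, 5 and 8 without B16-F1R2 replicate 1, B16-F1R2L replicate 2, B16-F1 replicate 1, B16-F1 replicate 2, B16-F1R2 replicate 2 and B16-F1R2L replicate 1. Of all tested genes, 4.3% and 9.95% were lower in the first 2 of these fits, and 1.23%, 1.85%, 5.62%, 5.69%, 5.34% and 8.71% with those libraries left out, in the same order.

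Of 16 heat-inducible HSF1 targets outside the members, 9 rose and 2 fell from B16-F1 to B16-F1R2 (median 0.30), and 6 were higher and 5 lower in B16-F1R2L (median 0.09). That is 68.8% of the list called in each, where 55.4% and 56.7% of all tested genes were. After rescaling, 9 were higher and 4 lower in B16-F1R2L than B16-F1 (median 0.19). Of all genes 35.8% and 18% were, with a median of 0.12. Quantile normalization gave 8 and 4 (median 0.16), where all genes had 25.1% and 31.6% and a median of -0.05. From B16-F1R2 to B16-F1R2L, 12 were lower and none higher (median -0.25), or 13 and none at an unadjusted limma p under 0.05. Called were 75% of the list and 22.6% of all tested genes. Ubb, a polyubiquitin gene, went from 485 and 426 to 359 and 319 FPKM (log2 fold change -0.43, adjusted p = 0.017 from limma), and Bag3, the BAG partner of small heat shock proteins, from 27.2 and 30.7 to 23.7 and 20.3 (-0.40, adjusted p = 0.027). The call of Bag3 was lost in 9 alternatives (adjusted p up to 0.11), and those of Ubb and Hspe1 without B16-F1R2 replicate 1 (adjusted p = 0.077 and 0.078) or B16-F1R2L replicate 2 (adjusted p = 0.084 and 0.088). The lower count was 3 after rescaling, 1 without B16-F1R2 replicate 1, 0 without B16-F1R2L replicate 2 (12 at an unadjusted limma p under 0.05), 4 each without B16-F1 replicate 1 and B16-F1 replicate 2, 6 without B16-F1R2 replicate 2 and 10 without B16-F1R2L replicate 1. Of all tested genes, 4.3% were lower after rescaling, and 1.23%, 1.85%, 5.62%, 5.69%, 5.34% and 8.71% in the fits with a library left out, in the same order. The list median stayed negative in all of these fits, though leaving out a B16-F1 library cannot change it. The gene of HSF1 itself, Hsf1, was at 31.9 and 32.5, 35.4 and 35.1, and 34.3 and 30.9 FPKM and was called in no comparison. Hsf4 was lower in both metastatic lines (-0.56 and -0.70), and Hsf2 higher (0.39 in both). Hsbp1, whose product binds HSF1, was at 85.9 and 81.1, 75.5 and 72.3, and 84.6 and 82.4 FPKM.

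**Figure D4:**
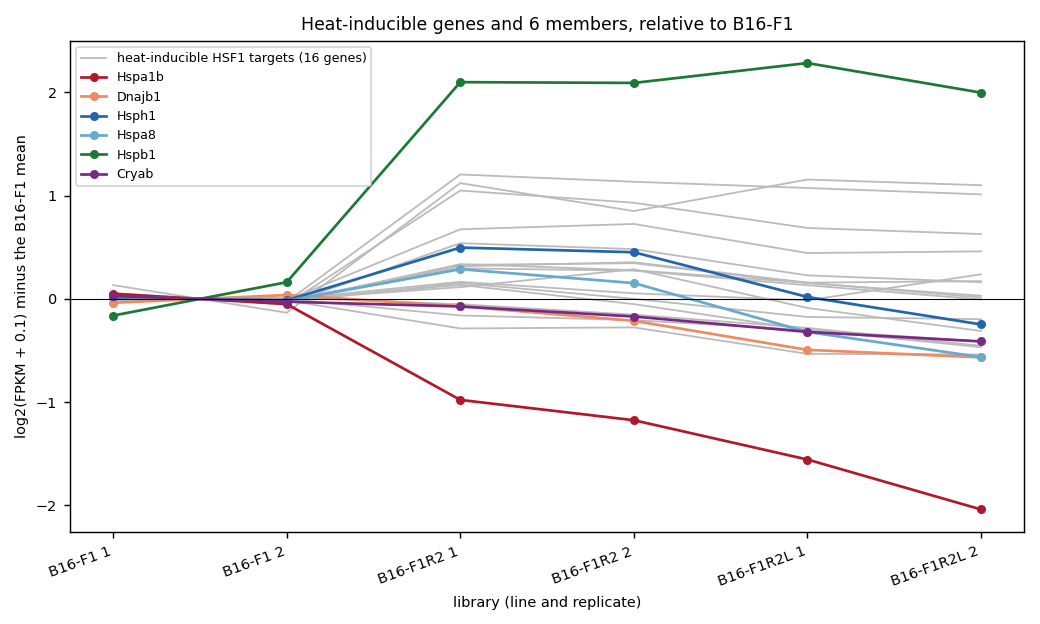
log2(FPKM + 0.1) of 6 members (coloured) and of the 16 heat-inducible HSF1 targets (grey), each minus its B16-F1 mean, in the 6 libraries. The lines join libraries for reading only. Hspb1 stays high in both metastatic lines, Hspa1b lies below 0 in both, and Hsph1 and Hspa8 lie highest in B16-F1R2.

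HSP90, which matures kinases and steroid receptors, has 2 cytosolic forms. Hsp90aa1, the inducible form, was at 472 and 454 FPKM in B16-F1, 1068 and 1017 in the lymph node line and 975 and 934 in the lung line (log2 fold changes 1.17 and 1.04, adjusted p = 1.3e-05 and 1.9e-05 from limma). Hsp90ab1, the constitutive form, was at 1346 and 1345, 1204 and 1167, and 1091 and 1012 FPKM (-0.18 and -0.36, adjusted p = 0.033 and 0.0023). The first of these was lost in 5 fits, among them those without B16-F1 replicate 1, B16-F1 replicate 2 and B16-F1R2 replicate 2 (adjusted p = 0.17, 0.16 and 0.09 from limma). The ratio of the first to the second was 0.338 to 0.351 in B16-F1 and 0.871 to 0.924 in the other lines. Of the 22 tested genes of HSP90 and its cochaperones, 12 were higher and 2 lower in B16-F1R2, 10 higher and 6 lower in B16-F1R2L, and 1 higher and 10 lower between the metastatic lines (Ppid, Cacybp and Tomm34 leading, at -0.29, -0.32 and -0.28). These counts are 63.6%, 72.7% and 50% of the list, against 55.4%, 56.7% and 22.6% of all tested genes. The calls of Cacybp and Tomm34 between the metastatic lines were lost without B16-F1R2 replicate 1 (adjusted p = 0.073 and 0.09 from limma) and without B16-F1R2L replicate 2 (adjusted p = 0.065 and 0.073). Sugt1 (0.78 and 0.67), Rpap3 (0.75 and 0.63) and Fkbp5 (0.63 and 0.78), all cochaperones, were higher in both metastatic lines than B16-F1. The lower count between the metastatic lines was 1 without B16-F1R2 replicate 1 and 1 without B16-F1R2L replicate 2, 4 each without B16-F1 replicate 1 and B16-F1 replicate 2, 3 without B16-F1R2 replicate 2 and 6 without B16-F1R2L replicate 1, with 1.23%, 1.85%, 5.62%, 5.69%, 5.34% and 8.71% of all tested genes lower in the same fits. After rescaling, 13 were higher and 3 lower in B16-F1R2L than B16-F1 (all genes 35.8% and 18%). Between the metastatic lines, rescaling gave 2 higher and 2 lower (18.2% of the list called, all genes 22.6%). Quantile normalization gave none higher and 3 lower there (13.6% called, all genes 19.7%).

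Of the 7 other HSP70 and HSP110 genes tested, 5 were higher and 1 lower in B16-F1R2 and 4 higher and 1 lower in B16-F1R2L than B16-F1 (85.7% and 71.4% of the list called, all genes 55.4% and 56.7%). From B16-F1R2 to B16-F1R2L, Hspa9 was higher (0.30, adjusted p = 0.013 from limma) and Hspa14 lower (-0.21), which is 28.6% of the list against 22.6% of all tested genes. The call of Hspa9 was lost without B16-F1R2 replicate 1, B16-F1R2 replicate 2 and B16-F1R2L replicate 2 (adjusted p = 0.064, 0.053 and 0.056), and that of Hspa14 without any 1 library. Hspa12b, an atypical HSP70, was 1.01 and 1.17 higher. Hspa4l, an HSP110, went from 5.32 and 4.40 to 10.6 and 8.80 and 10.9 and 10.5 FPKM, and Hspa9, the mitochondrial HSP70, from 192 and 185 to 255.8 and 251 and 301 and 325. Of the 7 exchange factors, 2 were higher and 3 lower in B16-F1R2, 2 higher and 4 lower in B16-F1R2L, and 3 lower between the metastatic lines (71.4%, 85.7% and 42.9% called, all genes 55.4%, 56.7% and 22.6%). The last 3 were Bag1, Bag2 and Bag3. Without B16-F1R2 replicate 1 they were at -0.15, -0.33 and -0.49, against -0.22, -0.39 and -0.40 in the main fit. Their calls were lost there, and fewer of all tested genes were called in that fit too. Bag1 and Bag3 also lost theirs without either B16-F1 library or B16-F1R2L replicate 2. After rescaling 1 was called lower, where 4.3% of all tested genes were. Bag2 was higher in both lines (1.12 and 0.73) and Bag6 (-0.47 and -0.55) and Hspbp1 (-0.36 and -0.65) lower. The call of Hspbp1 in B16-F1R2 was lost in 5 alternatives (adjusted p up to 0.13). Of 30 J-domain genes tested, 12 were higher and 7 lower in B16-F1R2, 9 higher and 5 lower in B16-F1R2L, and 3 higher and 6 lower between them. These are 63.3%, 46.7% and 30% of the list, against 55.4%, 56.7% and 22.6% of all tested genes. In the last comparison, 4 were higher and 6 lower at an unadjusted limma p under 0.05 with all 6 libraries. Fewer were called with any 1 library left out, and so were fewer of all tested genes. Against B16-F1, fewer J-domain genes were called lower in both lines when 1 B16-F1 library was left out. The share of all tested genes called lower fell too. The same held in B16-F1R2 without its replicate 1, and in B16-F1R2L without either of its libraries. After rescaling, 1 was lower in B16-F1R2L than B16-F1, where 18% of all tested genes were. Dnajc2, Dnajc21 and Dnajc22 were 0.65, 0.60 and 0.43 higher in B16-F1R2 and 0.48, 0.58 and 0.62 higher in B16-F1R2L than B16-F1. Dnajc12 ran the other way in B16-F1R2, at -0.83. Its call was lost with no filter (adjusted p = 0.065 from limma) and without either B16-F1 library or B16-F1R2 replicate 1. Dnajb2 was 0.27 higher in B16-F1R2L than B16-F1R2, a call lost with no filter (adjusted p = 0.075 from limma) and without any 1 library. Between the metastatic lines Dnajc7 and Dnajc11 were lower in B16-F1R2L, by 0.29 and 0.30 on the log2 scale, where against B16-F1 their B16-F1R2L values were 0.12 and -0.16. The calls between the metastatic lines were lost without B16-F1R2 replicate 1 (adjusted p = 0.052 and 0.067 from limma), and that of Dnajc11 also without B16-F1R2L replicate 2 (adjusted p = 0.055). Dnajb13, a J-domain gene of sperm and cilia, was at 0 and 0.143 FPKM in B16-F1, 6.91 and 4.997 in the lymph node line and 7.63 and 6.22 in the lung line. It passed the filter through the 2 lines where it is high, and without it 11 and 8 J-domain genes were higher than in B16-F1. With no filter its adjusted p against B16-F1 was 0.001 and 0.0009 (limma).

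Receptors of clusterin and other extracellular chaperones were read from a list of 10 genes, of which 4 were tested and 3 reached 1 FPKM in every line. Of these 3, 1 was higher and 1 lower in B16-F1R2, 1 higher and 2 lower in B16-F1R2L, and 1 higher between these lines (55.4%, 56.7% and 22.6% of all tested genes called). Lrp1, a scavenger receptor of many ligands, went from 2.15 and 2.16 FPKM to 8.52 and 10.0 in the lymph node line and 13.9 and 12.3 in the lung line (log2 fold changes 2.05 and 2.55, adjusted p = 2.1e-05 and 8.2e-06 from limma). Its step between the metastatic lines, 0.50 (adjusted p = 0.023), missed the threshold without B16-F1R2 replicate 1 (adjusted p = 0.11) and without either B16-F1R2L library (adjusted p = 0.085 and 0.065). Plxna4, a plexin, was at 0.237 and 0.175, 0.775 and 0.841, and 1.48 and 1.498 FPKM, and passed the filter through B16-F1R2L alone. Its step between the metastatic lines was 0.81 with an adjusted p of 0.054 with no filter (limma), and was called in the filtered fit (adjusted p = 0.043) but not without any 1 library of either metastatic line (adjusted p = 0.1 to 0.16). Lrp2 stayed at or under 0.0523 FPKM and Trem2 was listed at 0. Apoe, which like Clu encodes a secreted apolipoprotein, ran the other way, from 1337 and 1323 FPKM to 907 and 846 and 835 and 767 (-0.60 and -0.73, adjusted p = 0.0004 and 0.00017). Of 7 immediate early genes tested as a sign of handling or acute stress, 1 was higher and 2 lower in B16-F1R2, 3 higher and 3 lower in B16-F1R2L, and 2 higher and 1 lower between the metastatic lines (42.9%, 85.7% and 42.9% called). The call of Ier2, 1 of the last 2, was lost when any library but B16-F1R2L replicate 2 was left out (adjusted p = 0.072 to 0.14 from limma). Myc was 1.11 and 1.12 higher in the metastatic lines and Ier3 was at -0.55 and -0.62, both called. Atf3 was at 5.06 and 5.27, 2.88 and 2.85, and 6.63 and 6.54 FPKM, Jun at 14.97 and 14.5, 14.1 and 15.02, and 10.7 and 9.60, and Fos stayed at or under 0.531. Their part in the chaperone values was not tested.

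**Figure D5:**
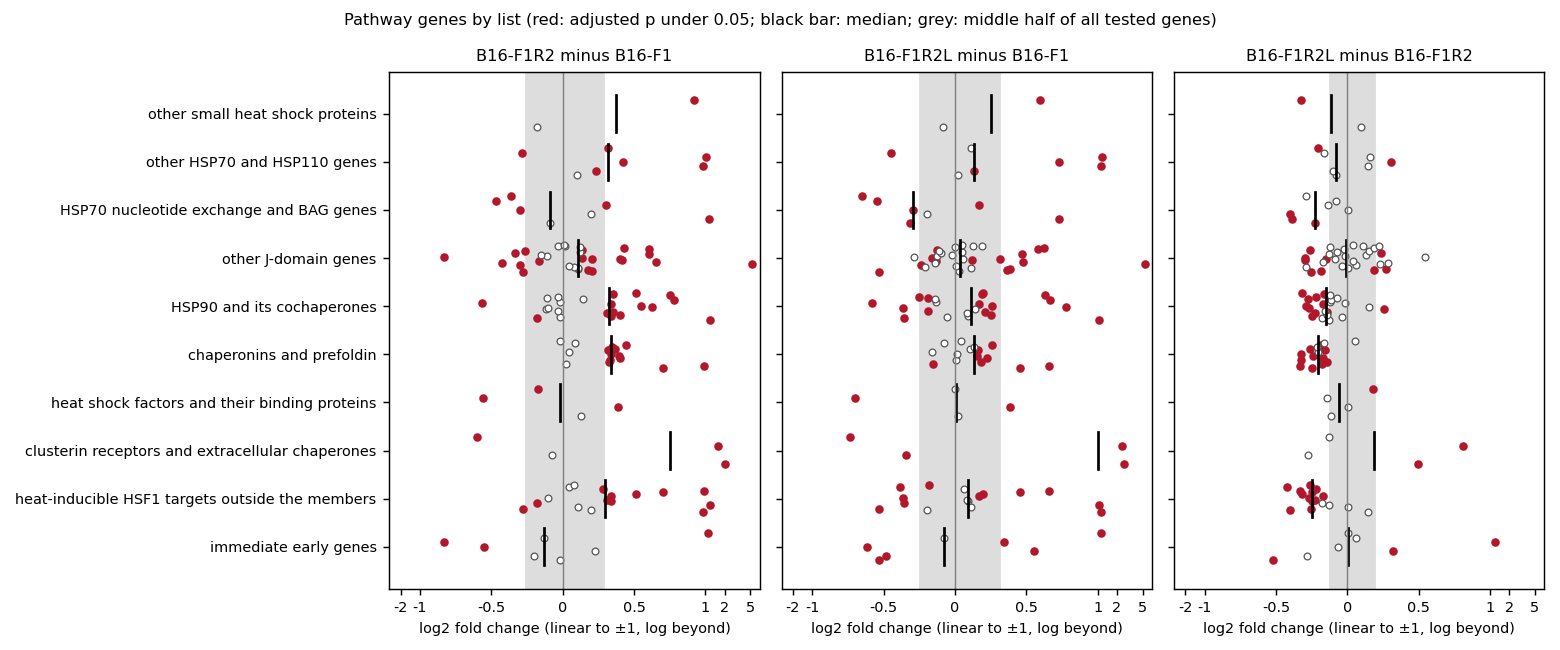
log2 fold changes of the tested genes of each list in the 3 comparisons (x axis linear to 1 in either direction and logarithmic beyond). Red points have an adjusted p under 0.05 (Dnajb13 and Plxna4, which passed the filter through their high lines, included), black bars are list medians and the grey band holds the interquartile range of all tested genes. Chaperonins and HSF1 targets lie mostly right of 0 in B16-F1R2 against B16-F1 and left of 0 in the lung line against B16-F1R2.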

How the data were processed

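RNA of 6 libraries (3 lines, 2 each, grouped by their labels) was sequenced by the authors as polyadenylated RNA from a stranded kit, 50 bases from 1 end, and mapped to mm9 with up to 2 mismatches and 20 positions per read. The submitters' processing notes name FastQC 0.10.1, TopHat2 2.0.10, Bowtie 1.0.0, DESeq2 and Cuffnorm. The authors deposited 1 table of FPKM, normalised by library and transcript length, without pooling. The strand setting and the gene annotation are not given in the sources used here. FPKM are not counts, so no count test was run.

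From these values log2(FPKM + 0.1) was fitted with limma 3.58.1 in R 4.3.3 (trended eBayes, all 6 libraries, no block), with Benjamini-Hochberg adjustment over 11379 genes at or above 1 FPKM in 2 or more libraries. Clu and Hspb7, which the group was chosen on, were not tested. The fit was tested on simulated data. Named genes were all members, all small heat shock proteins, the 3 called genes with the largest change per list and comparison, list genes at 100 FPKM or more in a line, the 5 genes nearest in pattern to Clu and Hspb7, and annotated neighbours. Of those called or at 100 FPKM or more, the text gives a selection. Hsf1, Lrp2, Trem2, Fos and the markers are named beyond that rule. Members and lists were chosen with earlier results of these data known. Positions, exons and shared stretches of 50 bases came from NCBIM37 with GENCODE, and promoters from RefSeq. Depth was estimated from the lowest values of genes with 1 transcript, so no counting interval is given. Alternatives were pseudocounts of 1 and 0.01, no filter or 5 FPKM, rescaling to a sum of 1000000, median ratios, quantile normalization, eBayes without a trend, the 4 libraries compared, a replicate block and each library left out. Python 3.11.15 with numpy 2.4.6 and pandas 2.3.3 served for the rest.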

Additional observations from a re-analysis of the deposited data

How the results depend on the processing

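Of 98 gene differences followed through 10 alternative settings and 6 fits with 1 library left out, 30 changed their call in at least 1. Hspb1 kept its calls against B16-F1 in all fits that tested it. Member counts here include Hspa1b, and pathway counts Dnajb13 and Plxna4, which passed the filter only through lines where they are high. Same-numbered libraries showed no strong shared shift (correlations of their deviations 0.052, -0.102 and 0.079). These values cannot tell whether such libraries were prepared together. With a replicate block, 5 pathway genes were higher in B16-F1R2L than in B16-F1R2 in place of 8, and Hspa8 was called higher in B16-F1R2 against B16-F1 (adjusted p = 0.034, limma). Values that changed sign were Hspb7 in B16-F1R2L against B16-F1 (-0.78, quantile normalization), Plxna4 in B16-F1R2 against B16-F1 (-0.32, quantile normalization) and Hspb2 in B16-F1R2L against B16-F1 (0.019, rescaled). With 1 library left out, signs changed within the ranges of Hsph1 (-0.25 to 0.019) and Hspb2 (-0.24 to 0.070) in B16-F1R2L against B16-F1 and of Hspb1 (-0.10 to 0.19) and Hspb2 (-0.060 to 0.25) between the metastatic lines. The cause was not tested.

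Rescaling to a sum of 1000000 gave 5 members called in B16-F1R2 against B16-F1 in place of 3, and 11 pathway genes lower in B16-F1R2L than in B16-F1. Of all tested genes, 52.2% were called in the first comparison and 18% were lower in the second. Rescaling moved all called genes between the metastatic lines from 1378 higher and 1190 lower to 2079 and 489. Pathway genes called there, 43 in all, 8 higher and 35 lower, became 25, 4 and 21 with no filter, 20 in all and 11 lower after rescaling, 23, 5 and 18 after quantile normalization, 19, 5 and 14 without a trend, and 17, 3 and 14 with the 4 libraries alone. Of all tested genes, 22.6% were called in the main fit. In these settings 10.1%, 22.6%, 19.7%, 15.3% and 13.3% were, in the same order. Median ratios gave 5 higher (all genes 11.2%). With 1 library left out, members called ran from 3 to 4 in B16-F1R2 against B16-F1, 4 to 6 in B16-F1R2L against B16-F1 and 0 to 5 between the metastatic lines. Pathway genes called ran from 49 to 64 (41 to 49 higher, 7 to 15 lower), 39 to 55 (26 to 35 higher, 13 to 20 lower) and 4 to 25 (0 to 3 higher, 4 to 22 lower). Fewer of all tested genes were called too wherever a library of a compared line was left out. A lone library was assumed to vary like the other lines. Depth limits Hspa1a, Hspb8 and the B16-F1 values of Clu and Hspb7, which are worth a few reads.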
